A study of Mus musculus with 8 samples.

Results

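The miR-34 family is described here in the livers of db/db and db/+ mice. Its members were taken by name: every miRNA spot of the array that carried the name mmu-miR-34a, mmu-miR-34b-5p, mmu-miR-34b-3p, mmu-miR-34c or mmu-miR-34c*, written below without the species prefix. These are 5 of the 567 mouse miRNAs on the array, read by 10 probes, which hold 100 of the 11540 miRNA spots of each array (10 spots per probe). The series compared livers of 4 diabetic db/db mice with livers of 4 control db/+ mice, both on the C57BL/KsJ background per the labels, and the labels give no treatment and no age for the animals used. Mice homozygous for the db mutation lack the long, signalling form of the leptin receptor throughout the body, and grow obese and diabetic. The db/+ mouse carries 1 mutant copy of the receptor gene, so the comparison is with heterozygotes and not with wild type. For each array, 100 ng of total RNA received a Cy3 label. The series states 4 animals per strain, so every animal is taken to have had an array of its own. The title of db/+ replicate 1 reads livers, in the plural, where the other titles read liver.

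miRNAs are short RNAs that pair with messenger RNAs, mainly through their seed, the bases 2 to 8 counted from the 5′ end, and lower translation or stability of the message. miR-34a comes from a gene of its own, and miR-34b and miR-34c are cut from 1 shared precursor transcript. The family is known as a direct target of the tumour suppressor p53 and for repressing messages of the cell cycle and of survival, and in liver miR-34a is known for repressing Sirt1, a deacetylase that takes part in lipid and glucose metabolism. Those points are background and were not measured here.

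The mature sequences show which members share a seed and how alike the RNAs are that the probes read. Of the 5 members, 4 were matched by name to RefSeq (GRCm38.p6): miR-34a as miR-34a-5p, miR-34c* as miR-34c-3p, and both arms of miR-34b. The mature miR-34a and miR-34b-5p are shown with the relatives miR-449a and miR-449c, which have the same seed, and then the 2 matched members from the other precursor arm. Each is written 5′ to 3′ with its seed in capitals.
miR-34a: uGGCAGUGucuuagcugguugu
miR-34b-5p: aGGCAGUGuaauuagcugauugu
miR-449a: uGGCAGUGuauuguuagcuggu
miR-449c: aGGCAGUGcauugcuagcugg
miR-34b-3p: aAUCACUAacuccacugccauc
miR-34c*: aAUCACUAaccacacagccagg

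The seed GGCAGUG was held by 4 of the 1679 mature mouse miRNA names in that table, and these are the first 4 sequences above. The table held no mature sequence for miR-34c or for the relative miR-449b, so their seeds were not read here. Their absence from this group is a gap in the table and says nothing about their seeds. The seed AUCACUA was held by 2, miR-34b-3p and miR-34c*. miR-34a and miR-34b-5p differed by 4 single-base edits over 22 and 23 bases, and miR-34b-3p and miR-34c* by 5. Between members of different arms the distance was 14 or 15 edits. miR-34a stood 6 edits from miR-449a and 7 from miR-449c.

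In the array's coordinates, which follow mm9, the miR-34a probes lie on chromosome 4, at chr4:149442584-149442603 for A_54_P2499 and chr4:149442585-149442603 for A_54_P2498. The other members lie on chromosome 9 in the order miR-34c*, miR-34c, miR-34b-3p, miR-34b-5p, within chr9:50911149-50911736, a stretch of 588 bases. In RefSeq gene records of GRCm38.p6, used for names only, Btg4 and Hoatz overlap Mir34b and Mir34c, and no other gene record overlaps Mir34a. Strand was not compared. The 2 probes of each member end at the same base on 1 side and differ by 1 base on the other. Taking the shared side as the 3′ end, they cover bases 3 to 22 and 4 to 22 of miR-34a, and only the last 14 and 13 bases of miR-34c*. The distances between these ends (36 bases between the miR-34b arms, 530 from miR-34b-3p to miR-34c*) are the same in the array's coordinates and in RefSeq.

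All 8 arrays sat on 1 slide and were scanned once, with db/+ in slide row 2 and db/db in slide row 1. An effect of the row on the slide and an effect of strain cannot be told apart. The arrays differed in brightness. The factor that brought each to a common median, taken over the 89 miRNAs that all 8 arrays detected, was 5.63, 0.564, 1.58 and 0.210 on db/+ replicates 1 to 4, a 26.8-fold spread, and 0.847 to 1.06 on the db/db arrays. From 91 to 255 mouse miRNAs were detected on a db/+ array and from 133 to 166 on a db/db array. miR-122, the most typical hepatocyte miRNA, was detected on every array and did not pass the test between strains (log2 difference 0.10 ± 0.30, SE, limma adjusted p = 0.874). That difference turned negative under 3 other processings and without db/+ replicate 1 or 3.

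miR-34a was higher in the livers of the db/db mice, by 5.80-fold. Before scaling, its signal was 623.8, 109.7, 199.0 and 30.7 on db/+ replicates 1 to 4 and 602.1, 1036, 544.9 and 1258 on db/db replicates 1 to 4. On that scale the brightest db/+ array, replicate 1, lay above db/db replicates 1 and 3, so the strains overlapped, and the db/+ values ran over a 20.3-fold range. After scaling, the signal was 110.8, 194.5, 126.3 and 145.8 in db/+ and 710.7, 973.5, 548.7 and 1186 in db/db. Scaled this way the strains did not overlap: the lowest db/db array, replicate 3, was 2.82-fold above the highest db/+ array, replicate 2.

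**Figure D1:**
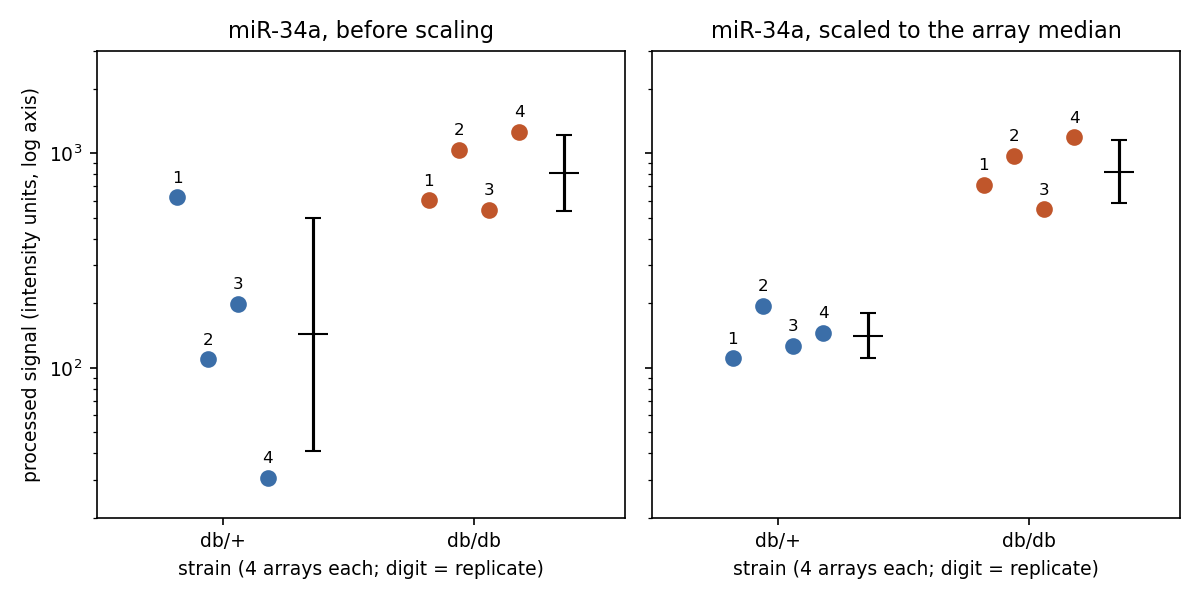
Processed signal of miR-34a (intensity units, log axis) on the 4 db/+ and 4 db/db arrays, before scaling on the left and after scaling to the array median on the right; digits are replicate numbers and the black marks are the mean ± SD of the log2 values. Unscaled, db/+ replicate 1 at 623.8 lies among the db/db arrays, and scaled, all 4 db/+ arrays lie at 194.5 or below and all 4 db/db arrays at 548.7 or above.

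On the log2 scale the scaled level of miR-34a was 7.14 ± 0.35 in db/+ and 9.68 ± 0.49 in db/db (SD, n = 4 each). The difference was 2.54 ± 0.26 (SE), higher in 4 of 4 db/db arrays, with a limma adjusted p of 1.7e-04 over the 127 miRNAs tested (those which every array of 1 or both strains detected). Of the 127, 19 passed an adjusted p of 0.05, or 15.0%, with 12 higher in db/db (9.45%) and 7 lower (5.51%). That split was 6 and 8 with scaling to the 75th percentile, 3 and 1 with scaling to miR-122, and 9 and 8 with quantile normalisation and 10 and 11 with cyclic loess when each was run over the tested miRNAs alone. It was 7 and 4 without db/db replicate 2 (11 miRNAs) and 7 and 5 without db/db replicate 3 (12 miRNAs). The strains did not overlap for 29 of the 127 (22.8%), 20 of them higher in db/db (15.7%). Since db/+ replicate 4 detected only 91 miRNAs, at most 91 of the 127 could enter the test through db/+. The rest entered through db/db alone, which favours miRNAs higher in db/db. The shares higher and lower, here and beside the lists below, carry that limit. miR-34a was detected on all 8 arrays. With values floored at 4.59, miR-34a had the largest log2 difference of the 127 and the second smallest p. Its rank by size rests on that floor: miR-676, floored on db/+ replicates 2 and 4, had 2.11 there and 3.04 with a floor of 1.15, above the 2.54 of miR-34a. By size miR-34a ranked 3 with the authors' deposited scores and 103 with cyclic loess over all miRNAs. The median difference over all 127 was 0.15.

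The result depended on putting the arrays on a common scale. Without any scaling the log2 difference of miR-34a was 2.50 with a limma adjusted p of 0.993 (two-sided exact permutation p = 0.0857). Cyclic loess run over all 567 floored miRNAs, which moved the median of the 127 tested to -1.35, gave 0.66 ± 1.17 (SE) with an adjusted p of 0.638. The same method run over the 127 tested miRNAs after median scaling, a setting added once the first had been seen, gave 2.45 with an adjusted p of 3.26e-04.

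**Figure D2:**
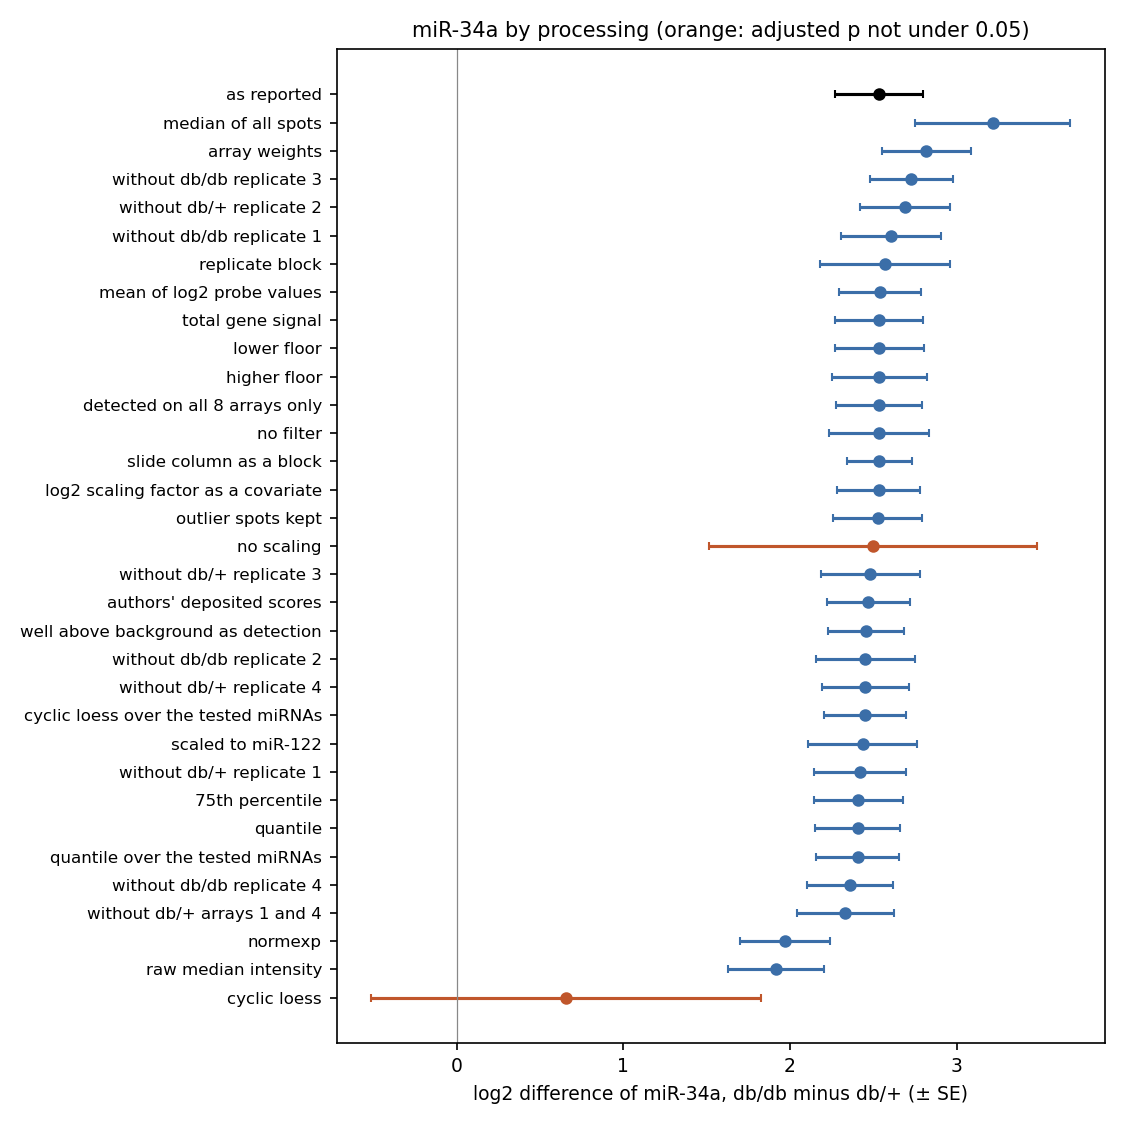
Log2 difference of miR-34a between db/db and db/+ (x axis, ± SE) as reported and under each other processing with a standard error (y axis), ordered by size; orange points did not reach an adjusted p of 0.05. The orange points are the 2 settings without scaling (2.50) and with cyclic loess over all miRNAs (0.66).

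Set against miR-122 on the same array, the log2 ratio of miR-34a was -8.24 ± 0.42 in db/+ and -5.80 ± 0.55 in db/db (SD, n = 4 each), where only the difference between strains is read, since probes of different miRNAs differ in brightness. That difference was 2.44, or 5.42-fold (two-sided exact permutation p = 0.0286, the smallest that 4 against 4 allow, 0.0381 after Benjamini-Hochberg adjustment over 4 such tests of miR-34a). The authors' deposited scores for miR-34a were 1.68, 1.72, 1.70 and 1.64 in db/+ and 2.22, 2.36, 2.12 and 2.35 in db/db. Read as logarithms of base 20, a base estimated from the scanner files, their log2 difference was 2.47, or 5.54-fold. In bulk liver RNA, a change in the number of cells of a type and a change in RNA per cell cannot be told apart.

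Both probes of miR-34a rose. The scaled log2 level of A_54_P2498 was 5.83 ± 0.26 in db/+ and 8.36 ± 0.52 in db/db (SD, n = 4 each), a difference of 2.53 ± 0.27 (SE, limma adjusted p = 0.00231 over 271 probes). For A_54_P2499 the level was 7.80 ± 0.43 in db/+ and 10.35 ± 0.48 in db/db, a difference of 2.55 ± 0.30 (SE, limma adjusted p = 0.00252). Of the 271 probes, 9.23% passed in either direction and 6.64% passed with a higher signal in db/db. Without both db/+ arrays 1 and 4, the brightest and the dimmest, the differences were 2.33 and 2.36 and neither probe passed (limma adjusted p = 0.0754 and 0.0589), while miR-34a itself still did (2.33, adjusted p = 0.00266).

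The spots behind these means were tight except on the dim db/+ arrays. In db/db all 77 spots kept were well above background, and in db/+ 63 of 75. The 12 others belonged to A_54_P2498, with 7 of 10 spots well above background on db/+ replicate 2 and 1 of 10 on db/+ replicate 4. On that last array the spots of A_54_P2498 ran from 2.10 to 30.2 unscaled units, with a coefficient of variation of 68.9%. The spots of A_54_P2499 there ran from 38.1 to 57.5 and all 10 were well above background.

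**Figure D3:**
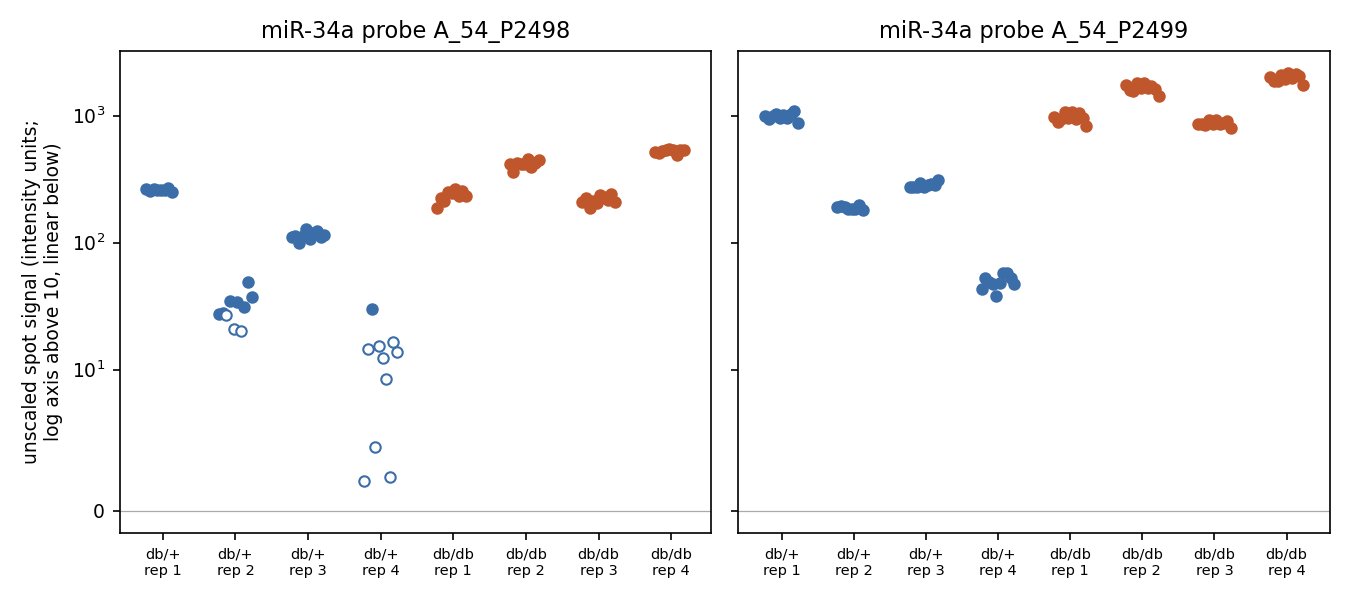
Unscaled signal of each kept spot (intensity units, log axis above 10 and linear below) of the 2 miR-34a probes on the 8 arrays; filled points were well above background and open points were not. Open points occur only for A_54_P2498 on db/+ replicates 2 and 4.

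The other 4 members were not measurable in either strain. miR-34b-5p, miR-34b-3p, miR-34c and miR-34c* were detected on 0 of 8 arrays, and none of their 614 kept spots was well above background. Among their 26 spots left out as outliers, 6 carried that flag: 1 of miR-34b-5p, 3 of miR-34c and 2 of miR-34c*. Of all 567 mouse miRNAs, 15.7% were detected on all 8 arrays. Above each array's own 95th percentile of negative control spots lay 24 of the 614 spots (3.91%), 8 of 303 in db/+ (2.64%) and 16 of 311 in db/db (5.14%), where 5% of negative control spots lie by construction. No level and no fold is therefore given for these 4, only their signals.

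miR-34b-5p, which has the seed of miR-34a, had unscaled signals of 4.62, 1.17, 2.15 and -1.30 in db/+ and 2.44, -0.44, 2.81 and 1.63 in db/db. Its partner arm miR-34b-3p lay between -2.21 and 0.52 in db/+ and between -2.06 and 1.38 in db/db. miR-34c lay between -2.33 and 1.03 in db/+ and between -1.59 and 0.45 in db/db. miR-34c*, the other arm of that precursor, was negative on all 8 arrays, between -5.83 and -3.81 in db/+ and between -5.10 and -2.69 in db/db. For each of the 4 the strains overlapped. The mean negative control spot lay between 0.16 and 2.20 on these arrays.

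**Figure D4:**
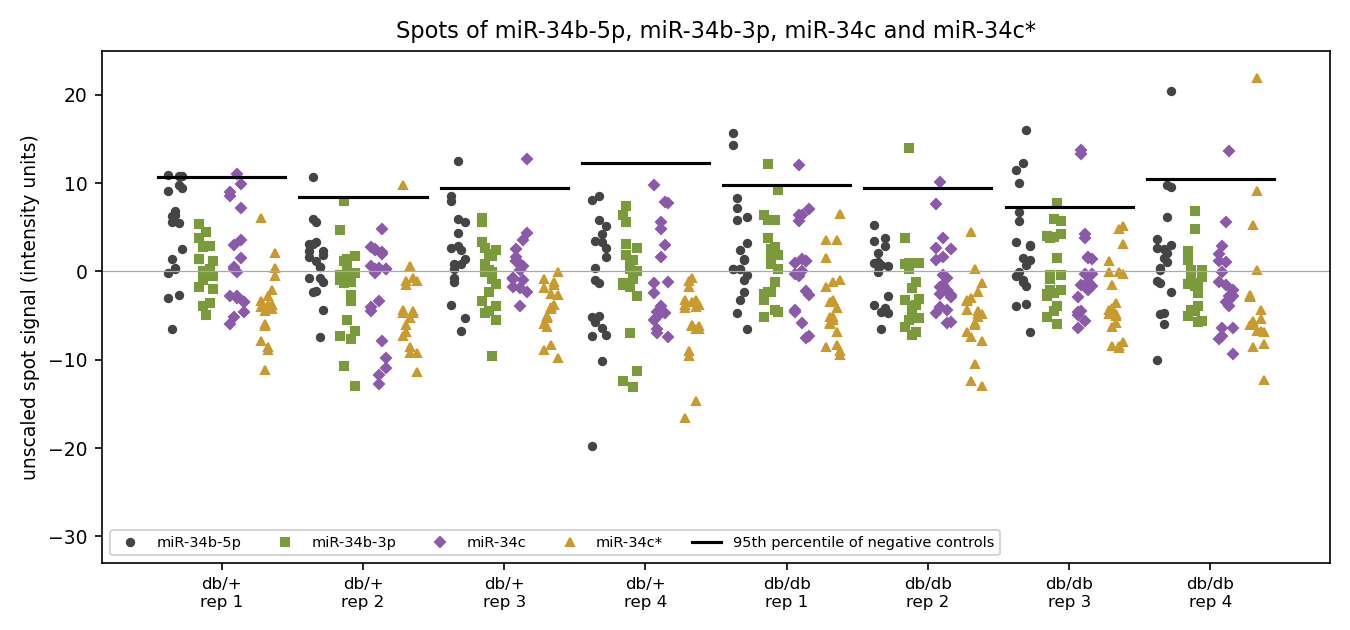
Unscaled signal (intensity units) of each kept spot of miR-34b-5p, miR-34b-3p, miR-34c and miR-34c* on the 8 arrays; the black bars mark the 95th percentile of that array's negative control spots. Of the 614 spots, 24 lie above the bars, 8 in db/+ and 16 in db/db.

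Two-sided exact permutation tests of the scaled linear signal gave p = 0.4 for miR-34b-5p, 0.257 for miR-34b-3p, 0.343 for miR-34c and 0.486 for miR-34c*, all 0.486 after Benjamini-Hochberg adjustment over the 4, and none was under 0.05 before adjustment. The scaling divided signals near 0 by unlike array factors, 0.210 on db/+ replicate 4 and 5.63 on db/+ replicate 1. For miR-34c* an unscaled -5.83 became -27.7 on db/+ replicate 4, and -3.81 became -0.68 on db/+ replicate 1. The tests thus reflect array brightness as well as the members. A difference between strains was not detectable at this signal. The probes of miR-34b-5p, 4 edits from miR-34a, had 0 kept spots well above background in db/db, where every kept miR-34a spot was. The seed relatives miR-449a and miR-449c, and miR-449b, taken as a relative by name, were likewise detected on 0 of 8 arrays. Among them 1 kept spot was well above background, of miR-449c in db/+.

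Among miRNAs known as targets of p53, or raised by it, miR-107 was the one that passed beside miR-34a. Of 16 such miRNAs listed, the 5 members among them, 15 were on the array and 7 were tested. Of these, 2 were higher in db/db (miR-34a and miR-107), 0 were lower and 5 did not pass, where 9.45% of all 127 tested miRNAs were higher and 5.51% lower. Their median log2 difference was 0.22, against 0.15 over all 127. The list was drawn up with earlier results of these data known, so it does not support a direction. miR-107, which lies in a pantothenate kinase gene and is known for its part in insulin sensitivity, had scaled signals of 532.6, 787.4, 665.9 and 819.8 in db/+ and 1001, 1172, 1238 and 1221 in db/db, without overlap. Its log2 difference was 0.74 ± 0.17 (SE, limma adjusted p = 0.0164). The call was lost in 10 of 24 other settings and without db/db replicate 2, 3 or 4 (adjusted p = 0.0591, 0.062 and 0.0524), and 1 of the 10, cyclic loess over all miRNAs, turned its direction (-1.73). The hepatocyte miRNA miR-194 had a difference of 0.22 (limma adjusted p = 0.304), miR-15a, which targets cell cycle and survival messages, -0.30 (0.271) and the smooth muscle miRNA miR-143 0.33 (0.362).

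Of 13 miRNAs known to repress Sirt1, 12 were on the array and 5 were tested. Only miR-34a itself was higher in db/db, 0 were lower and 4 did not pass, beside 9.45% higher and 5.51% lower over all 127. The median log2 difference of the 5 was 0.26, against 0.15 over all 127. miR-22 had 0.42 (limma adjusted p = 0.265), miR-199b* 0.26 (0.553) and miR-199a-5p 0.08 (0.796). miR-217, miR-9, miR-138, miR-204 and miR-449a of this list were detected on no array. Neither Sirt1 nor p53 was measured by these arrays.

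**Figure D5:**
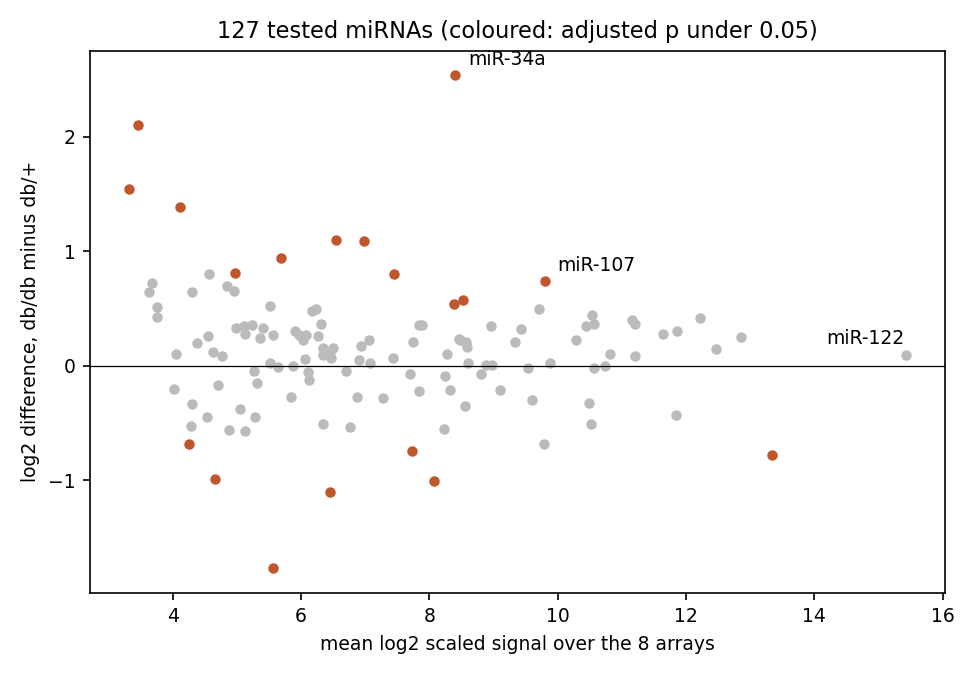
Log2 difference between db/db and db/+ (y axis) against the mean log2 scaled signal over the 8 arrays (x axis) for the 127 tested miRNAs, with those at an adjusted p under 0.05 coloured. miR-34a, at 2.54, has the largest difference with values floored at 4.59 (with a floor of 1.15, miR-676 exceeds it), and miR-107 (0.74) and miR-122 (0.10) are marked for comparison.

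The miRNAs whose pattern over the 8 arrays was most like that of miR-34a were found by the root mean square difference of log2 values after each miRNA's own mean was taken off. They were miR-676 (0.498), miR-149 (0.536), miR-378 (0.844) and miR-31 (0.895), over 8 arrays that share the strain difference. Since they were picked for a pattern that contains the strain difference, their own differences are given without a test, as 1.09 on the log2 scale for both miR-378 and miR-31. miR-676 and miR-149 were detected on 2 and 0 of the 4 db/+ arrays and entered the test through db/db alone, so their differences depend on the floor. Their direction turned with normexp background correction (-0.48 and -0.57) and with raw median intensity (-0.23 and -0.31). Under the same 2 settings miR-34a stayed higher, by 1.97 and 1.92, with limma adjusted p of 6.2e-04 and 0.0027.

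Markers of other cell types in the tissue were read beside miR-34a. Of 6 leukocyte miRNAs, all detected on at least 1 array, 3 were tested and 2 were lower in db/db, as were 5.51% of all tested miRNAs. These were miR-142-3p (-1.10, limma adjusted p = 0.0164) and miR-223 (-0.74, 0.0434). The summed scaled signal of the 6 lay between 424.2 and 546.3 in db/+ and between 236.8 and 320.4 in db/db. Of 5 epithelial miRNAs, which include those of bile duct, 2 were tested and miR-200b was higher (0.81, limma adjusted p = 0.00788), beside 9.45% of all tested miRNAs, with sums of 62.8 to 68.8 and 76.2 to 104.0. miR-200b was not detected on db/+ replicate 4 and entered the test through db/db alone, the strain where it was higher. Its call is therefore not independent of the filter. The call of miR-142-3p was lost in 10 of 24 other settings and in 3 of the 8 fits that left out 1 array. For miR-223 these counts were 12 of 24 and 6 of 8, and for miR-200b 12 of 23 and 1 of 8. miR-200b fell below 0 with normexp (-0.31), raw median intensity (-0.09) and cyclic loess over all miRNAs (-0.09). None of the tested hepatocyte (4), endothelial (2), erythroid (1) or stellate and smooth muscle (3) miRNAs passed. The muscle miRNAs miR-1, miR-133a and miR-206 and the neural miRNAs miR-9 and miR-124 were detected on no array. The other neural miRNA listed, miR-128, was detected on at least 1 array but did not enter the test. The summed scaled signal of the neural miRNAs lay between 7.3 and 10.1 in db/+ and between 8.8 and 15.5 in db/db. The part of these cell types in the difference of miR-34a was not tested.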

How the data were processed

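Samples were grouped by the strain in their labels. The series states 4 animals per strain, so replicates were taken as separate animals. Spot intensity, background-subtracted and not scaled between arrays, came from scanner files which, per the file headers, Agilent's Feature Extraction wrote in version 9.5.3.1 (the series text names another). The flags for detection, background, saturation and outliers are of another kind, 0 or 1, per the file headers. The deposited series table held raw median intensity, equal to the scanner values in all 12493 rows. For 139 miRNAs there is a score deposited by the authors, global median normalized and log transformed per the labels; its base is not given in the sources used here, and 20 was estimated (19.99 to 20.01 per array).

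Spots flagged as outliers (3.42% to 4.84%) were left out, and no miRNA spot was saturated. Spots were averaged by probe, then by miRNA, divided by the array's median over the 89 miRNAs that every array detected (relative to the geometric mean of the 8 medians), floored at 4.59 and put on a log2 scale. Detection followed the deposited flag. Tests used limma 3.58.1 (lmFit, eBayes, two-sided, Benjamini-Hochberg) in R 4.3.3 with the data.table package, release 1.17.8, and exact permutation tests for single values; SAM used all 70 splits at a false discovery rate of 5%. Plots were drawn with matplotlib 3.10.9. The procedure was tested on simulated data. Arrays number 4 per strain, which limits precision.

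The members, lists and alternatives were chosen with earlier results of these data known. Named were the 5 members, seed relatives, per list the miRNAs past the threshold and up to 3 further tested ones by smallest p, miR-122, and the 4 nearest patterns. Marker miRNAs past the threshold, and miRNAs listed as undetected, were named after their values were seen. Titles share only replicate numbers 3 and 4, whose deviations from the strain means correlated at 0.036 and 0.307 over 127 miRNAs, so numbers were not taken to pair animals. RefSeq tables gave mature sequences and gene names.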

Additional observations from a re-analysis of the deposited data

Results flagged for a closer look

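In 3 groups of 4 arrays 1 array stood apart from its strain by Dixon's criterion, which chance meets in about 1 of 20 groups. The number of groups screened is not given here, so the 3 cannot be set against that rate. The scaled signal of miR-34b-5p on db/+ replicate 4 was -6.17, against 0.82 to 2.07 on the other db/+ arrays; this miRNA was detected on no array, and dividing by that array's factor of 0.210 enlarges its unscaled -1.30. The log2 scaled signal of miR-22 on db/db replicate 2 was 12.5, against 12.4 on the other db/db arrays. The log2 scaled signal of miR-199b* on db/+ replicate 4 was 3.5, against 4.59 to 4.81 on the other db/+ arrays. No array of miR-34a stood apart in this way, for the miRNA or for either probe.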

How the results depend on the processing

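The log2 difference of miR-34a was above 0 under all 25 other settings (0.66 to 3.22) and in the 8 fits that left out 1 array (2.36 to 2.73, limma adjusted p at most 0.00188). The highest, 3.22 or 9.29-fold, came with the median of all spots. Several of the 25 settings could not move the estimate from 2.54, so their estimates say nothing about its stability. These were the lower and higher floor, detection on all 8 arrays only, no filter, the slide column block and SAM. The scanner's total signal per miRNA was another, being a fixed multiple of the signal used here on each array. miR-34a missed the threshold under 2 settings, cyclic loess over all 567 miRNAs (0.66) and no scaling (2.50). In these 2 settings 0 miRNAs passed in limma, with 16 and 1 of 127 at an unadjusted p under 0.05. Cyclic loess and quantile normalisation were first run over all miRNAs, most of them at the floor; the versions over the tested miRNAs were added after those results had been seen, and gave 2.45 and 2.41 for miR-34a and 21 and 17 miRNAs passing. The cause of the loss with cyclic loess was not tested.

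The number of miRNAs passing, 19 as reported, was less stable. It was 11 with quantile normalisation over all miRNAs, 4 with scaling to miR-122, 2 with normexp, 1 with raw median intensity, 8 with the median of all spots, 12 with the higher floor, 4 without a filter, 6 with the authors' deposited scores, 42 with array weights and 9 without db/+ arrays 1 and 4. It ran from 11 to 20 when 1 array was left out, and SAM called 23. With the replicate block, over the 4 arrays whose titles share a number, miR-34a was 2.57 higher and 8 miRNAs passed.

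Both miR-34a probes passed in all 8 fits that left out 1 array (limma). They were fitted under 10 of the 25 other settings and both passed in 7. In the 3 others, cyclic loess over all miRNAs, no scaling, and without db/+ arrays 1 and 4, 0 of the 2 did. For the other 4 members the exact tests could hardly pass after adjustment, given a smallest p of 0.0286 and signals near the negative controls. Their 0 calls under every setting run therefore say nothing about stability.

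Directions of other named miRNAs turned as follows. With cyclic loess over all miRNAs the log2 differences were -1.73 for miR-107, -2.45 for miR-194, -0.79 for miR-143, -3.08 for miR-22, -0.61 for miR-199b*, -0.58 for miR-199a-5p, -4.76 for miR-122, -0.19 for miR-378, -0.0045 for miR-31 and -0.087 for miR-200b. With normexp they were -0.28 for miR-143, -0.53 for miR-199b*, -0.50 for miR-199a-5p, -0.48 for miR-676, -0.57 for miR-149 and -0.31 for miR-200b, and with raw median intensity -0.11, -0.27, -0.26, -0.23, -0.31 and -0.090 in the same order. miR-199a-5p was -0.042 with the 75th percentile, -0.12 with cyclic loess over the tested miRNAs, -0.015 with scaling to miR-122, -0.0096 with the higher floor, -0.11 with array weights and -0.11 with the replicate block. miR-199b* was -0.062 without scaling and -0.17 without db/+ arrays 1 and 4. miR-122 was -0.028 with the 75th percentile and -0.082 without those arrays. With 1 array left out, miR-122 ran from -0.17 to 0.30, miR-199a-5p from -0.074 to 0.17 and miR-199b* from -0.14 to 0.39.

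Scaling to the median over all mouse miRNAs was not run, since that median was at or below 0 on 3 arrays. The dim db/+ arrays limit what can be said of weak miRNAs, and signals near the negative controls give no level. Slide row cannot be told apart from strain.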
